A study of Blastobotrys raffinosifermentans with 8 samples.

Results

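The 36 mitochondrial identifiers of *Blastobotrys raffinosifermentans* are all those on the array that start with ARAD1M, of 6160 yeast identifiers in all. A further 6092 identifiers belong to nuclear chromosomes A to D and 32 to neither class. The wild-type strain LS3 was grown overnight in YMM-glucose-NaNO3, pelleted and shifted to YMM-NaNO3 with 0.5% protocatechuic acid besides 1% glucose, or with glucose alone at the same 1%. Cells were harvested after 15 and 30 min and after 2 and 5 h, which gave 8 samples, 4 with protocatechuic acid and 4 with glucose, and each was hybridized to 1 array. Protocatechuic acid is an aromatic acid that the yeast can metabolize, and both media held glucose. No condition had a second array, so no single difference between 2 arrays has a replicate error. The only spread between arrays that could be tested was that around a fit with medium and time together.

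A yeast mitochondrial genome encodes core subunits of the respiratory chain and of ATP synthase, the ribosomal RNAs of the organelle and its transfer RNAs. Most mitochondrial proteins are encoded in the nucleus and imported. In *Saccharomyces cerevisiae* the mitochondrial genome is read by a single-subunit RNA polymerase of its own, long primary transcripts are cut into mature RNAs, and the mature messengers carry no poly(A) tail. The Agilent labelling protocol named in the sample labels starts cDNA synthesis from an oligo(dT) primer, and what this does to the levels of these RNAs was not tested. Fewer mitochondria and less RNA per mitochondrion cannot be told apart in total RNA. The files do not pair the ARAD1M identifiers with gene names, so no identifier is given a product here, and the members are ordered by how many probes they carry.

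The 36 identifiers carried 147 probes on 162 spots, and they were divided into 2 classes by their number of probes. In 19 of them a single probe was printed, and it ended between base 64 and base 102 of the identifier (median base 72). The last base of a probe is a minimum for the length of an identifier, and the full lengths were not known. The other 17 carried 2 to 10 probes, and their last probe ended between base 126 and base 2952. Nuclear identifiers had a median of 10 probes, and 3 of the 6092 had a single one. For a member with 1 probe, the value on an array therefore rests on that probe alone. A value is the log2 intensity in the authors' table, as the median over the spots of an identifier.

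The mitochondrial identifiers lay over the same range as most nuclear ones. Their mean level over the 8 arrays was between 4.66 and 9.18 log2 intensity with a median of 5.69, against a nuclear range of 4.49 to 12.8 with a median of 5.76. Of the 36, 17 were above the nuclear median, 10 at or above its 75th percentile, 2 at or above its 90th percentile and 5 under its 10th percentile. Members with 1 probe had a median level of 5.50 and those with 2 or more a median of 5.92. A level also depends on how well a probe binds. Among the 12 members with at least 5 probes, the probes of 1 identifier spanned a median of 2.68 log2 units, against 1.49 among nuclear identifiers, so these placings describe probes and not amounts of RNA. Leaving out probes that were well above background (a mark of the scanner software) on fewer than 4 arrays put the mitochondrial median 0.36 log2 units above the nuclear one, where with all probes it lay 0.07 units below.

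The brightest member was ARAD1M90110g (10 probes), brighter than 95.9% of nuclear identifiers. With protocatechuic acid it had 9.14, 9.14, 9.19 and 9.26 at the 4 times, and with glucose 9.03, 9.12, 9.32 and 9.23. It was also among the steadiest, since these values spanned 0.29 log2 units. The next was ARAD1M90360g (10 probes), with 8.64, 8.66, 8.29 and 8.40 with protocatechuic acid and 8.55, 8.58, 8.76 and 8.32 with glucose. In this identifier the 2 h array separated the media more than the other times did. ARAD1M90170g (1 probe) had 7.88, 8.13, 7.45 and 7.48 with protocatechuic acid and 7.80, 8.29, 7.72 and 7.18 with glucose, highest at 30 min in both media. ARAD1M90090g (1 probe) had 7.81, 7.74, 6.94 and 7.50 with protocatechuic acid and 8.05, 7.69, 7.74 and 7.17 with glucose. Its lowest value came at 2 h in the first medium and at 5 h in the second. ARAD1M90300g (10 probes) had 7.70, 7.44, 7.02 and 7.42 with protocatechuic acid and 7.53, 7.40, 7.99 and 7.85 with glucose, so that 2 h was its lowest time in the first medium and its highest in the second.

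**Figure D1:**
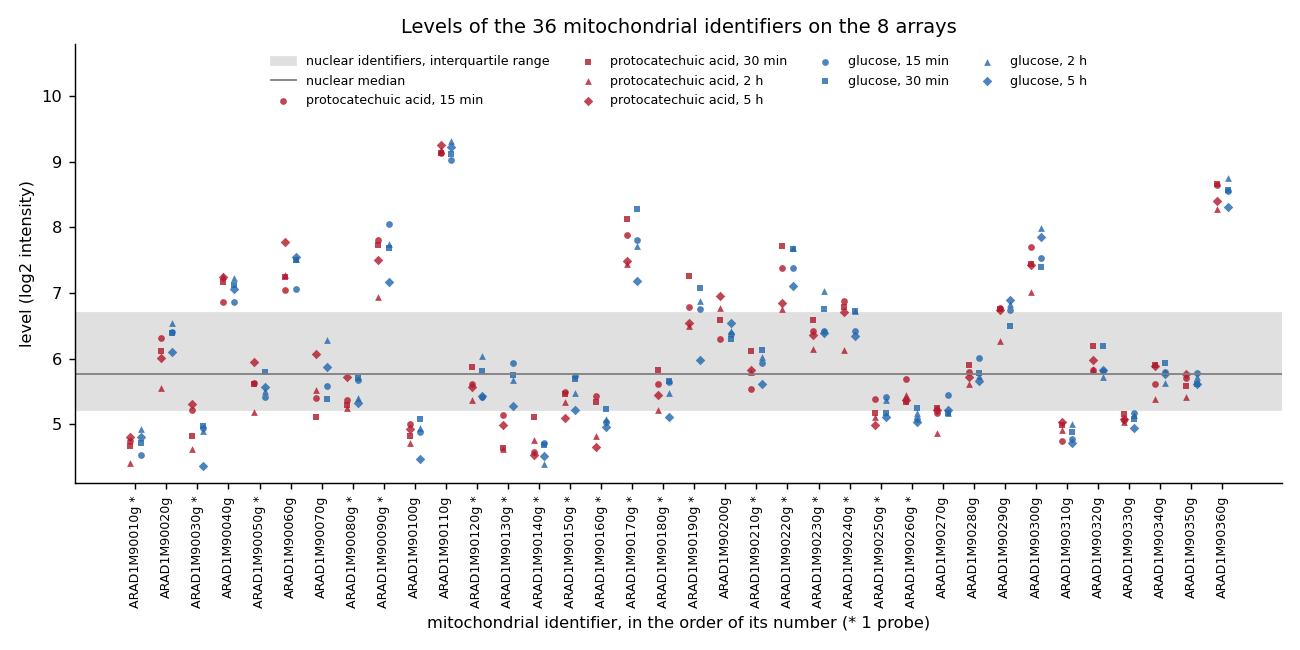
Level (log2 intensity, vertical axis) of each of the 36 mitochondrial identifiers on the 8 arrays, in red for protocatechuic acid and in blue for glucose, with a symbol for each time and an asterisk for identifiers with 1 probe. The grey band holds the interquartile range of the mean levels of nuclear identifiers, and 17 of the 36 members have a mean above the nuclear median of 5.76.

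At the low end, ARAD1M90010g, ARAD1M90030g and ARAD1M90140g, all with 1 probe, were well above background on 0 of the 8 arrays, and ARAD1M90100g (3 probes) on 1. Their mean levels were 4.70, 4.89, 4.66 and 4.85, beside medians of 4.30 to 4.47 for the negative control spots of the 8 arrays. These 4 members were left out of the fits, and 32 were tested, 16 with 1 probe and 16 with more. ARAD1M90310g had a mean of 4.88, yet at least 1 of its 10 probes was above background on each array. In all, 23 of the 36 members had a probe well above background on every array, which is 63.9%, against 83.4% of nuclear identifiers. This rule is easier to meet with many probes, and nuclear identifiers had a median of 10. It held for 15 of the 17 members with 2 or more probes and for 8 of the 19 with 1. By spots the mitochondrial share was higher than the nuclear one. Between 70.4% and 77.8% of mitochondrial spots per array were well above background, against 58.8% to 70.2% of nuclear spots, and no mitochondrial spot was marked as saturated or as an outlier.

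The mitochondrial levels varied little over the 8 arrays. The range of a tested member, its highest minus its lowest array, had a median of 0.66 log2 units, against 0.90 for tested nuclear identifiers. A range of at least 1 was found in 5 of the 32 members, against 43.6% of all 6036 identifiers tested. Those 5 were ARAD1M90130g (1.30), ARAD1M90190g (1.27), ARAD1M90070g (1.19), ARAD1M90090g (1.12) and ARAD1M90170g (1.11), and 4 of them carry 1 probe. The smallest range, 0.23 around a mean of 5.08, was that of ARAD1M90330g (10 probes). Of its probes, 3 were well above background on all 8 arrays and 5 on none, so this value lies near the background, where a range says little.

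No mitochondrial identifier passed the test of the medium. In limma's fit with medium and time, Bonferroni adjustment over all 6036 identifiers left 0 of 32 members called, and Benjamini-Hochberg adjustment also left 0, as were 0% of all identifiers by either rule. At an unadjusted p under 0.05 there were 2 of 32, against 5.3% of all. The first was ARAD1M90130g (1 probe), which was lower with protocatechuic acid by a mean of 0.81 log2 units (SE 0.16, limma adjusted p = 0.51 by Benjamini-Hochberg). It had 5.14, 4.64, 4.63 and 4.98 with protocatechuic acid, against 5.93, 5.75, 5.67 and 5.27 with glucose. None of its 4 protocatechuic acid values was well above background, and 3 of its 4 glucose values were, all but the last. Its protocatechuic acid value was then replaced by the faintest spot above background on that array, where that spot was higher. By that measure this member was 1.73-fold lower at 15 min, 1.75-fold at 30 min and 1.70-fold at 2 h. These folds are not firm minimums, because the faintest such spot is no detection limit. At 15 min this member had 5.14, above the faintest such spot at 4.89, and was still not marked. The second was ARAD1M90260g (1 probe), which was higher with protocatechuic acid by 0.33 (SE 0.12, limma adjusted p = 0.84). It had 5.69, 5.33, 5.44 and 5.37 with protocatechuic acid, against 5.08, 5.25, 5.17 and 5.03 with glucose.

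Besides ARAD1M90130g and ARAD1M90260g, the largest mean differences were those of ARAD1M90020g (-0.36, SE 0.18), ARAD1M90300g (-0.30, SE 0.21) and ARAD1M90220g (-0.28, SE 0.19). Each of these 3 rested mostly on the 2 h arrays. Taken time by time, the median difference of the 32 members, protocatechuic acid minus glucose, was close to 0 at first, with -0.02 after 15 min and 0.04 after 30 min, then -0.26 after 2 h and 0.15 after 5 h. The medians over all 6036 identifiers tested were -0.12, -0.03, -0.03 and 0.00 in the same order. These values compare 2 arrays at each time and have no test.

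At 2 h, 28 of the 32 members were lower with protocatechuic acid, against 55.2% of all identifiers tested. A log2 difference of -0.5 or below was found in 10 of 32, against 5% of all, and one of 0.5 or above in 0 of 32, against 6.08% of all. Members of both classes contributed, with medians of -0.29 for those with 1 probe and -0.24 for those with more. Among the 27 members above background on both 2 h arrays, 23 were lower and 9 reached -0.5, with a median of -0.27. The 4 members that were higher were ARAD1M90200g by 0.36, ARAD1M90260g by 0.27, ARAD1M90320g by 0.13 and ARAD1M90040g by 0.03. Their probes did not all share this sign. Of the 10 probes of ARAD1M90200g 6 were lower, as were 4 of the 7 of ARAD1M90320g and 1 of the 10 of ARAD1M90040g, and ARAD1M90260g has 1 probe. The 7 spike-in control probes, whose RNA is added during labelling, had a median difference of -0.16 on the same 2 arrays and ranged between -0.24 and 0.05. What part of the mitochondrial difference goes with that of the control probes was not tested.

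**Figure D2:**
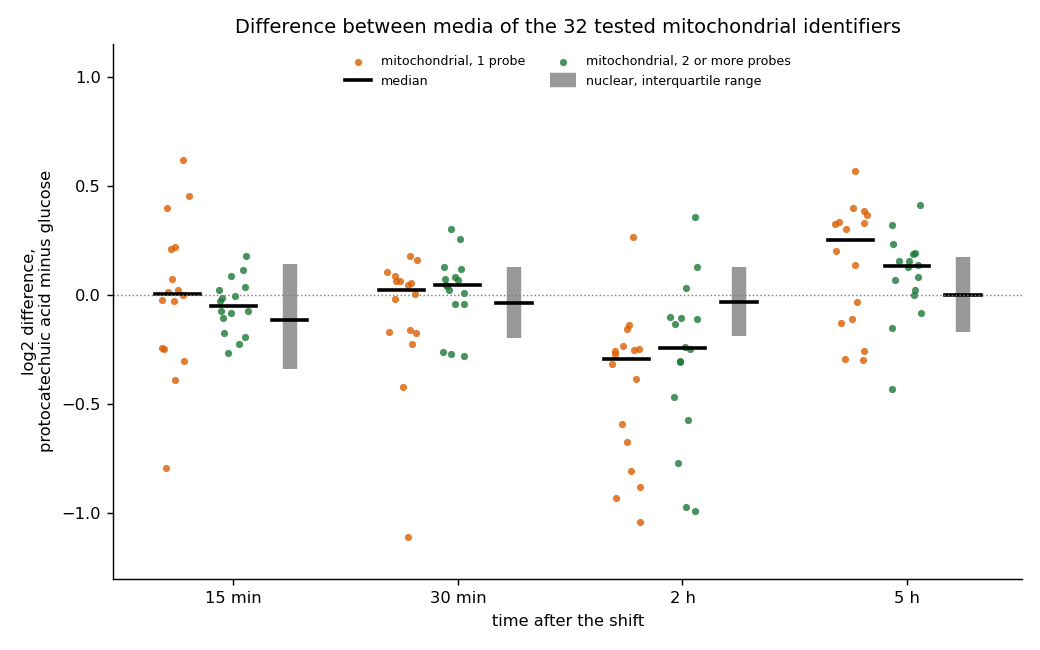
Log2 difference between media, protocatechuic acid minus glucose (vertical axis), at the 4 times for the 32 tested mitochondrial identifiers, each a point, with black bars for medians and a grey bar for the interquartile range of nuclear identifiers. At 2 h the members lie around a median of -0.26 with 28 of 32 below 0, and at 5 h around 0.15 with 22 of 32 above 0.

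The 10 members that were lower by at least 0.5 at 2 h included 3 with 9 or 10 probes, and in these the difference was shared by the probes. ARAD1M90020g had 5.55 with protocatechuic acid and 6.54 with glucose at 2 h, a difference of -0.99, and 10 of its 10 probes were lower. At the other times it had 6.32, 6.11 and 6.01 with protocatechuic acid and 6.40, 6.38 and 6.10 with glucose, so that the 2 h array with protocatechuic acid stood below the other 7. ARAD1M90300g differed by -0.97 at 2 h, with 9 of 10 probes lower. Its 8 brighter probes differed by -1.22 to -0.77, and the probes starting at bases 646 and 706, which were never well above background, differed by 0.18 and -0.16. ARAD1M90290g had 6.27 with protocatechuic acid and 6.84 with glucose, a difference of -0.57, and 9 of 9 probes were lower. In ARAD1M90360g, at -0.47, 10 of 10 probes were lower.

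**Figure D3:**
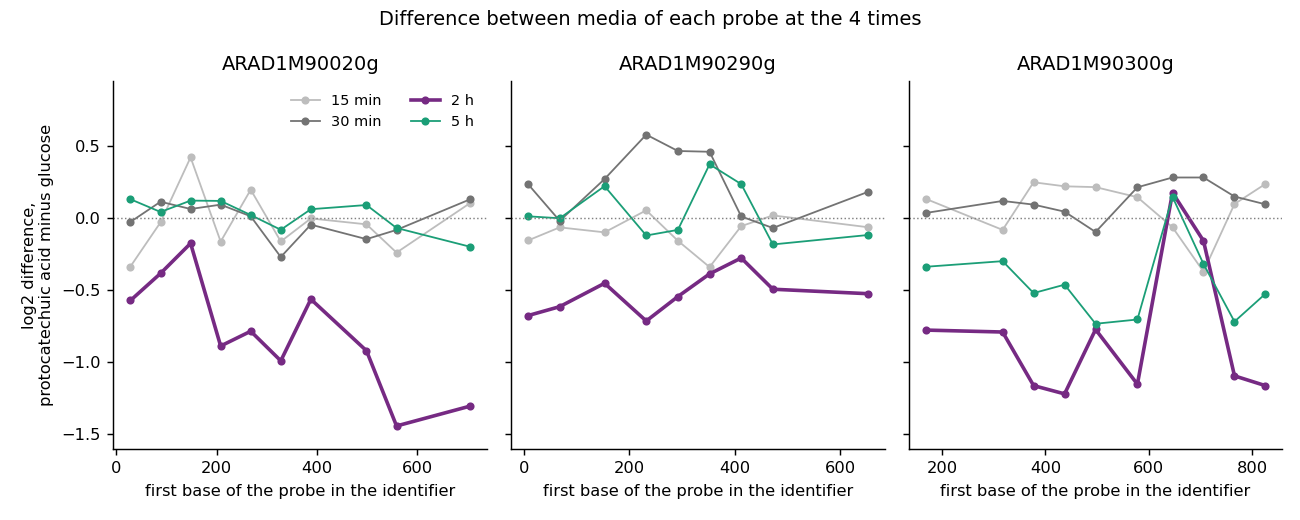
Log2 difference between media, protocatechuic acid minus glucose (vertical axis), of each probe against its first base within ARAD1M90020g, ARAD1M90290g and ARAD1M90300g (horizontal axis), with a line for each time. The 2 h line lies below 0 at 10 of 10, 9 of 9 and 9 of 10 probes.

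The other 7 carried 1 or 2 probes. ARAD1M90220g had 6.76 with protocatechuic acid against 7.69 with glucose at 2 h (-0.93), ARAD1M90230g 6.15 against 7.03 (-0.88), and ARAD1M90090g 6.94 against 7.74 (-0.81). ARAD1M90120g differed by -0.67 and ARAD1M90240g by -0.59. ARAD1M90070g differed by -0.77, but 1 of its 2 probes was lower and 1 was not. ARAD1M90130g completed the list at -1.04, and its value with protocatechuic acid was not well above background. Probe by probe over the whole class, 88 of 111 mitochondrial probes that were well above background on at least 4 arrays were lower with protocatechuic acid at 2 h. That is 79.3%, against 53.5% of 37930 such nuclear probes.

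At 5 h the sign of the median was the opposite one. Of the 32 members, 22 were higher with protocatechuic acid, against 49.7% of all identifiers, and 1 reached 0.5, against 5.93% of all. That 1 was ARAD1M90190g (1 probe), with 6.55 with protocatechuic acid against 5.98 with glucose. The spike-in control probes differed by a median of 0.54 in the same direction on these 2 arrays, from 0.08 to 0.61, and their part in the result was not tested. Among members with 10 probes, a pair stood apart in opposite directions at 5 h. ARAD1M90040g was higher with protocatechuic acid at 10 of 10 probes, by 0.18 to 0.50, while ARAD1M90300g was lower at 8 of its 8 brighter probes, by 0.30 to 0.73. At 15 and 30 min, few members differed. At 15 min 1 of 32 was lower by at least 0.5 and 1 higher, against 13.4% and 12.9% of all, and at 30 min 1 was lower and 0 were higher, against 4.62% and 5.09% of all. The member that was lower both times was ARAD1M90130g, and the one that was higher was ARAD1M90260g.

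No mitochondrial identifier passed the test of time either. In limma's test over the 4 times, Bonferroni adjustment left 0 of 32 members called, against 0.215% of all identifiers, and Benjamini-Hochberg adjustment left 0, against 16.5% of all. At an unadjusted p under 0.05 there were 2 of 32, against 37% of all. These were ARAD1M90170g (limma adjusted p = 0.070 by Benjamini-Hochberg) and ARAD1M90150g (adjusted p = 0.12). For 5 h minus 15 min with both media together, Bonferroni adjustment left 0 members called, against 0.149% of all, and the Benjamini-Hochberg one 0, against 11.7% of all. At an unadjusted p under 0.05 there were 4 of 32, against 31.9% of all. ARAD1M90060g was higher at 5 h by 0.61 (SE 0.17), and ARAD1M90170g (-0.51, SE 0.18), ARAD1M90150g (-0.46, SE 0.13) and ARAD1M90250g (-0.35, SE 0.14) were lower, with limma adjusted p between 0.073 and 0.15. Time and the column of the slide cannot be told apart, nor can medium and the row of the slide, since each time took 1 column and each medium 1 row.

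The time at which most tested members were lowest differed between the 2 media. With protocatechuic acid, 20 of 32 members had the lowest of their 4 values at 2 h, against 19.3% of all identifiers. With glucose, 20 of 32 had it at 5 h, against 22% of all, and 14 of these members carry 1 probe. The median member with protocatechuic acid stood, relative to its own 15 min value, at 0.04 after 30 min, -0.27 after 2 h and -0.05 after 5 h. With glucose it was at 0.07, 0.09 and -0.13. The medians over all identifiers tested were 0.10, 0.07 and 0.08 with protocatechuic acid and between 0.05 and 0.06 with glucose.

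With protocatechuic acid, 10 of 32 members were lower by at least 0.5 at 2 h than at 30 min, against 11.9% of all, and 0 were higher by as much, again against 11.9% of all. The largest of these differences were those of ARAD1M90220g (-0.96), ARAD1M90090g (-0.80) and ARAD1M90190g (-0.76). By 5 h, 27 of 32 were above their 2 h value, against 52.8% of all, and 5 by at least 0.5, against 11.7% of all. Of the 111 brighter mitochondrial probes, 100 were higher at 5 h than at 2 h in this medium. The share that was lower was 9.91%, against 48.4% of 37930 nuclear probes chosen by the same rule. All these probes share the same 2 arrays and are not replicates. With glucose, 25 of 32 were lower at 5 h than at 2 h, against 53.4% of all, and 6 by at least 0.5, against 9.38% of all. Those 6 were ARAD1M90190g (-0.89), ARAD1M90230g (-0.63), ARAD1M90120g (-0.61), ARAD1M90220g (-0.58), ARAD1M90090g (-0.57) and ARAD1M90170g (-0.54), each with a single probe.

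**Figure D4:**
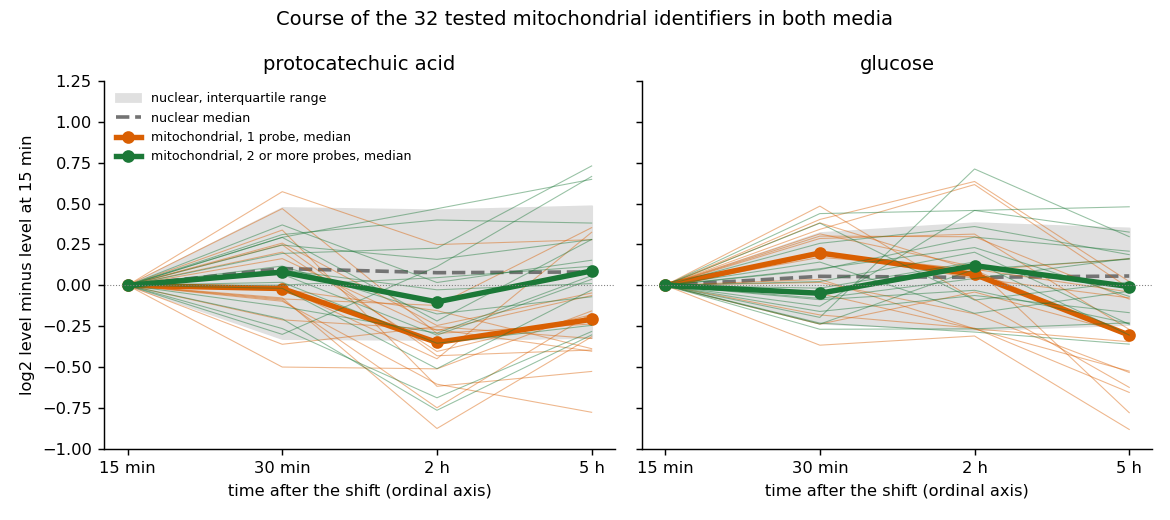
Log2 level minus that at 15 min (vertical axis) over the 4 times with protocatechuic acid (left) and with glucose (right), with thin lines for the 32 tested mitochondrial identifiers, thick lines for the medians of those with 1 probe (orange) and with more (green), and grey for nuclear identifiers. The 1-probe median reaches -0.35 at 2 h with protocatechuic acid and -0.30 at 5 h with glucose.

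The identifiers with 1 probe lay below those with more at 5 h in both media and at 2 h with protocatechuic acid. At 5 h relative to 15 min, their median was -0.21 with protocatechuic acid and -0.30 with glucose, while that of members with more probes was 0.09 and -0.01. At 2 h with protocatechuic acid the medians were -0.35 and -0.10. With glucose, 14 of the 16 with 1 probe had their lowest value at 5 h, against 6 of the 16 with more. The difference between these classes was not tested. ARAD1M90190g had 6.78, 7.25, 6.49 and 6.55 with protocatechuic acid and 6.76, 7.07, 6.87 and 5.98 with glucose, highest at 30 min in both media and lowest at 5 h with glucose. ARAD1M90220g, with 7.38, 7.72, 6.76 and 6.85 with protocatechuic acid and 7.38, 7.66, 7.69 and 7.11 with glucose, held its 30 min level to 2 h with glucose and not with protocatechuic acid.

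A few identifiers with 2 or more probes had the opposite course. ARAD1M90060g (3 probes) had 7.05, 7.25, 7.28 and 7.78 with protocatechuic acid and 7.07, 7.50, 7.52 and 7.55 with glucose, so that 15 min was lowest in both media. Its probes disagreed. The probes starting at bases 43 and 103 were higher at 5 h than at 15 min with protocatechuic acid. The one starting at base 163, the brightest with a mean level of 9.50, was lower by 0.55. ARAD1M90040g (10 probes) had 6.86, 7.17, 7.26 and 7.24 with protocatechuic acid and 6.87, 7.12, 7.23 and 7.05 with glucose. In this member the probes agreed in sign, since 10 of 10 were higher at 5 h than at 15 min in each medium, by 0.34 to 0.92 with protocatechuic acid and by 0.13 to 0.29 with glucose. ARAD1M90070g (2 probes) had 5.40, 5.10, 5.52 and 6.07 with protocatechuic acid and 5.58, 5.38, 6.29 and 5.87 with glucose. It was not well above background at 30 min with glucose, and its probe starting at base 637 was so on 0 arrays. At 5 h minus 15 min with glucose that probe differed by -0.08 and the one starting at base 88 by 0.38.

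Within 3 identifiers of 10 probes each, the difference between 5 h and 15 min was not the same at all probes. ARAD1M90110g, whose identifier value was steady, held probes that differed in sign. With protocatechuic acid its 4 last probes, starting at bases 634 to 826, were lower at 5 h than at 15 min by 0.41, 0.49, 0.52 and 0.66, while the first, at base 158, was higher by 0.39. With glucose the same 4 probes differed by 0.10, -0.25, -0.27 and -0.20. In ARAD1M90360g the largest differences lay in the middle, at bases 858, 918 and 1020, with -0.97, -1.04 and -0.96 with protocatechuic acid and -0.55, -0.58 and -0.64 with glucose. Its first 2 probes, at bases 210 and 374, differed by -0.03 and 0.02 with protocatechuic acid and by -0.07 and -0.11 with glucose. In ARAD1M90200g the first probe, at base 274, was lower at 5 h by 0.41 with protocatechuic acid and by 0.31 with glucose, and the other 9 were higher in both media, by up to 1.1 with protocatechuic acid at base 1259. The median over spots thus hid probes of opposite sign in ARAD1M90110g and ARAD1M90200g. The probes singled out here were also the brightest of their identifiers. The 4 last of ARAD1M90110g had mean levels of 11.7, 9.86, 12.0 and 13.2, its others at most 9.37. Those in the middle of ARAD1M90360g had 10.3, 10.2 and 9.45, its others at most 9.07. The first of ARAD1M90200g had 11.3, its others at most 9.26. Whether the differences go with the place or the level of a probe was not tested. The order of the mitochondrial probes by level was much the same on all arrays, with Spearman correlations between 0.95 and 0.98 over 28 pairs of arrays, which share their probes.

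**Figure D5:**
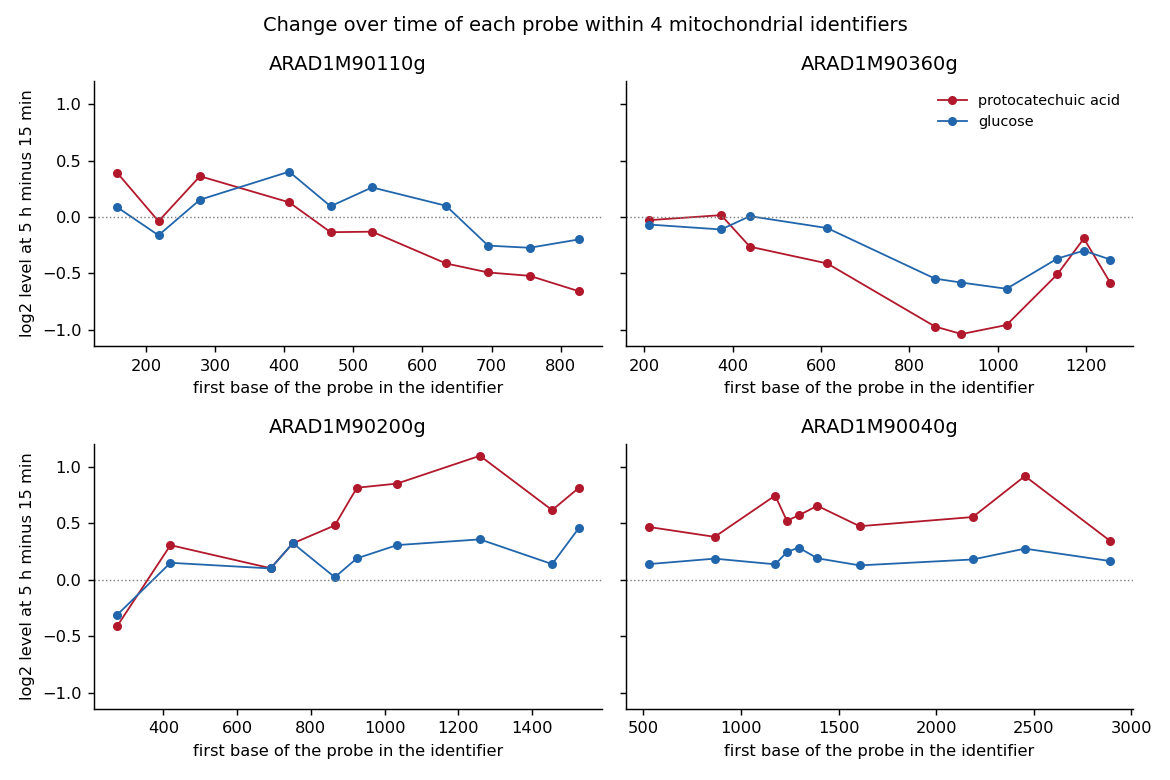
Log2 level at 5 h minus that at 15 min (vertical axis) of each probe against its first base in the identifier (horizontal axis), in red for protocatechuic acid and in blue for glucose, in 4 identifiers with 10 probes each. The differences are below 0 in both media over the last 3 probes of ARAD1M90110g and the middle of ARAD1M90360g, and above 0 at 9 of 10 probes of ARAD1M90200g and 10 of 10 of ARAD1M90040g in both media. The level of a probe, which also differs along the identifier, is not shown.

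As a share of the processed signal of an array, which is not scaled between arrays, the mitochondrial spots took little. They made up 0.408%, 0.340%, 0.291% and 0.320% of it at the 4 times with protocatechuic acid, and 0.372%, 0.289%, 0.339% and 0.322% with glucose, while being 0.263% of the spots. The share was lowest at 2 h with protocatechuic acid and at 30 min with glucose. ARAD1M90110g alone gave 47.6% to 58.3% of the mitochondrial signal, and its part was highest at 2 h with protocatechuic acid, where the mitochondrial share of that medium was lowest.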

How the data were processed

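Total RNA of strain LS3 was labelled with Cy3 and hybridized to 1-colour Agilent arrays. The scanner files deposited by the authors hold the intensity of each spot and of its local background on a linear scale, read with Agilent Feature Extraction 11.5.1.1, and marks for spots well above background, saturated or outlying. The authors' table holds log2 values of the same spots. Normexp background correction (offset 16) followed by quantile normalization of the complete arrays gave that table back to within 5e-09, which settles its scale and direction and shows no centring. The log2 values of the authors' table were used here.

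The value of an identifier is the median over its spots. The first base of a probe was read from the number in its name, with a probe length of 60 bases. An identifier was tested where 2 or more of the 8 arrays had 1 of its probes well above background, which held for 6036. The difference was fitted for each identifier with limma 3.58.1 in R 4.3.3 (medium and time as additive terms, 3 residual and 2.57 prior degrees of freedom), after the study's methods, with Bonferroni adjustment over all identifiers tested and Benjamini-Hochberg adjustment beside it. The residual spread of this fit is how far the difference between media varied over the times, so p-values measure that and not the spread between cultures. Differences at single times are a comparison of 2 arrays. The number of arrays limits the precision. All 8 arrays lie on 1 slide. The fits were tested on simulated data.

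The members, lists and rules were chosen with earlier results of these data known. The members named in the text are the 5 highest and the 5 lowest by mean level, the 5 with the largest range, the 5 with the largest mean difference between media and any that was called, and others were named where a count or a probe pattern turned on them, after their values were seen. Alternatives were other normexp offsets (50 and 0), median scaling, the processed signal scaled to its 75th percentile, other ways of joining probes, other filters, other fits and leaving out each array or time in turn. Plots were made in Python 3.11.15 (matplotlib 3.10.9).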

Additional observations from a re-analysis of the deposited data

Results flagged for a closer look

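The median difference between media of the 32 tested mitochondrial identifiers, protocatechuic acid minus glucose, had opposite signs at the last 2 times, with -0.26 at 2 h (28 of 32 below 0) and 0.15 at 5 h (22 of 32 above 0). The difference between these times was not tested, as each value compares 1 array with 1 array. Over all identifiers tested, the medians were -0.03 and 0.00.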

How the results depend on the processing

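The difference between media at 2 h kept its sign under each of the 10 alternatives run for it. It was -0.45 with a normexp offset of 0 and -0.54 with the processed signal, against -0.26 in the authors' table, and the other alternatives gave -0.41 to -0.17. With the processed signal the protocatechuic acid median at 30 min minus 15 min was 0.29 (0.04 in the authors' table) and the glucose median at 5 h minus 15 min was -0.34 (-0.13). The mitochondrial median minus the nuclear median was -0.07. It was -0.37 with the brightest probe of each identifier, 0.36 with only the probes that 4 or more arrays showed well above background, and 0.54 with only identifiers well above background on all 8 arrays, a choice made after seeing the data. The cause of these shifts was not tested. Leaving out 1 array or time in turn kept that value between -0.07 and -0.03 and gave 0 calls for medium or time. The median difference between media over all times (-0.07) lay between -0.11 and 0.04 when 1 time was left out, and was above 0 only without 2 h. No alternative called a member after Bonferroni adjustment. After Benjamini-Hochberg adjustment in limma, the processed signal called ARAD1M90070g and ARAD1M90160g over time and ARAD1M90160g at 5 h minus 15 min. A fit with no term for medium called ARAD1M90170g over time. The brightest probe called ARAD1M90060g at 2 h minus 15 min, as lower. That probe, starting at base 163, differed by -1.01 with protocatechuic acid and -1.04 with glucose. The median over the spots of this identifier went the other way, by 0.23 and 0.46. Members near the background, and those with 1 probe, have the least certain values.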
